A study of Mus musculus with 20 samples.

Results

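The 9 genes described here encode the AMPA receptor and the proteins most closely bound to it in forebrain neurons. Gria1, Gria2, Gria3 and Gria4 encode the pore subunits, Cacng2, Cacng3 and Cacng8 encode transmembrane AMPA receptor regulatory proteins (TARPs), and Cnih2 and Cnih3 encode cornichons. They were taken by gene symbol, and all 9 were found in both deposited tables, which share 17148 genes. The libraries came from flash-frozen brain tissue of mice on the C57Bl6/J background and fall into 4 groups of 5, which are Ncs1-/- (KO) hippocampus, Ncs1+/+ (WT) hippocampus, KO frontal cortex and WT frontal cortex. KO stands for the label Ncs1-/-, after Ncs1, the gene of neuronal calcium sensor 1, a protein that binds calcium in neurons, and no group carried a further allele or received an agent, as far as the labels state. The labels give neither the age nor the number of animals behind the libraries, so the tests below measure the spread between libraries.

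AMPA receptors are glutamate-gated channels that carry most of the fast excitatory current at central synapses. The subunits assemble into tetramers, and a receptor that holds the edited form of GluA2, the product of Gria2, passes little calcium. TARPs and cornichons are small membrane proteins that join the receptor, bring it to the surface and the synapse and slow its deactivation. In the hippocampus, receptors with GluA1 and GluA2 are common on pyramidal neurons, GluA4 is best known from fast-spiking interneurons, and the TARP encoded by Cacng8 is known as the most abundant TARP there.

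The site that sets calcium permeability lies in the pore loop and is shown here because the balance of Gria2 against the other subunits is one of the quantities measured below. In the coding sequences of the GENCODE M21 annotation on GRCm38, 63 bases were taken from each subunit, 30 on either side of the codon at this site, read 5′ to 3′ on the coding strand across an exon junction. The capitals mark the codon, which in Gria2 is the one whose middle base is edited in RNA so that arginine is read in place of glutamine. The codons lie at chr11:57243094-57243096 (plus strand, exon 11) in Gria1, chr3:80706911-80706913 (minus strand, exon 11) in Gria2, chrX:41610265-41610267 (plus strand, exon 11) in Gria3 and chr9:4464137-4464139 (minus strand, exon 12) in Gria4.
Gria1: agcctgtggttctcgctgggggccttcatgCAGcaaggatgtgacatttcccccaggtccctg
Gria2: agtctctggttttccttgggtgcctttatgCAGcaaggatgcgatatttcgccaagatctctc
Gria3: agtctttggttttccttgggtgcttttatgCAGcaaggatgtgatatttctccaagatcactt
Gria4: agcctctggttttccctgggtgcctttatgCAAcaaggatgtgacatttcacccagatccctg
In this genomic form all 4 genes encode glutamine, with the codon CAG in Gria1, Gria2 and Gria3 and CAA in Gria4. Gria2 and Gria3 shared 57 of the 63 bases, the most of any pair, and Gria1 shared 49 with each of Gria2 and Gria3, the fewest. Gene counts do not show which base the transcripts carried, so editing itself was not measured.

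The deposited tables place the members in the mm10 build, with starts counted from 1, and the ranges below are printed as the tables give them; 5 of the 9 starts were those of RefSeq (GRCm38.p6), and 6 of the 9 stops lay 1 base past the RefSeq end. Among the pore subunits, Gria1 lies at chr11:57011618-57330245 on the plus strand, Gria2 at chr3:80681450-80802836 on the minus strand, Gria3 at chrX:41400854-41678602 on the plus strand and Gria4 at chr9:4417893-4796235 on the minus strand. The TARP genes lie at chr15:77993623-78119281 (Cacng2, minus), chr7:122671744-122769395 (Cacng3, plus) and chr7:3394042-3416267 (Cacng8, plus). The cornichon genes lie at chr19:5092868-5098522 (Cnih2, minus) and chr1:181352628-181460642 (Cnih3, plus). Only Cnih2 overlapped another listed gene, at its 3′ end, where Yif1a on the other strand stops at 5092880; Yif1a had at most 177 counts in a cortex library and 273 in a hippocampus library.

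Total counts per library ran between 24041992 and 34612609.5 in KO hippocampus, 20003749 and 26075299 in WT hippocampus, 16609603 and 19912375 in KO cortex and 17815661 and 26730428 in WT cortex. Levels are given as CPM, counts scaled to the size of the library with TMM factors. Ncs1 averaged 300.3 ± 21.2 CPM in KO hippocampus against 441 ± 17.3 CPM in WT hippocampus, and 259 ± 3.68 CPM in KO cortex against 368 ± 17.4 CPM in WT cortex (SD, n = 5 each). Every KO library was below every WT library of its region, and the transcript was still counted in KO tissue; the part of the gene that the allele removes was not analysed here. The hippocampus libraries stood above the cortex libraries in the sum of 4 dentate granule cell markers. It was 346 to 473 CPM in KO hippocampus, 296 to 474 in WT hippocampus, 128 to 167 in KO cortex and 137 to 167 in WT cortex. Prox1, Dsp and C1ql2 did not overlap between the regions. Calb1 overlapped in both genotypes, with 110 to 148 CPM in KO hippocampus against 109 to 142 in KO cortex. No list of frontal cortex markers was examined. The cortex libraries held 5 of 5 markers of striatal projection neurons, at a sum of 371 to 606 CPM in KO cortex and 341 to 546 in WT cortex, against 59.9 to 96.4 in KO hippocampus and 59.6 to 83.2 in WT hippocampus. Choroid plexus markers ranged widely, between 32.6 and 3503 CPM in KO hippocampus, 26.8 and 2260 in WT hippocampus, 9.80 and 245 in KO cortex and 4.86 and 13.4 in WT cortex, and KO hippocampus replicates 2 and 4 and WT hippocampus replicate 4 held the most. All cortex libraries carry 1 lane tag in their names and all hippocampus libraries another, and each region has its own table, so region, lane and table cannot be told apart.

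Hippocampus and frontal cortex differed in 8 of the 9 genes, in KO and in WT mice alike. Gria1, Gria2, Cacng8 and Cnih2 were higher in hippocampus, and Gria3, Gria4, Cacng2 and Cacng3 were lower. Gria1 differed most, at 2.93-fold in KO and 3.03-fold in WT, followed by Cnih2 and Cacng8. Cnih3 did not pass the test in either genotype. A gene was called at an adjusted p under 0.05 in edgeR's quasi-likelihood test with Benjamini-Hochberg adjustment over all genes tested. Region differences were common among all genes: 38.8% of the 15032 tested in KO and 39.5% of the 14849 tested in WT were called, with 19.2% higher and 19.6% lower in KO hippocampus and 18.8% higher and 20.7% lower in WT hippocampus. The 4 higher and 4 lower members stand beside those shares. The same 8 genes had no overlap between the 5 hippocampus and the 5 cortex libraries in either genotype, as did 29.8% of all genes in KO and 29.5% in WT. The median size of the log2 fold change over all genes was 0.19 in KO and 0.18 in WT.

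**Figure D1:**
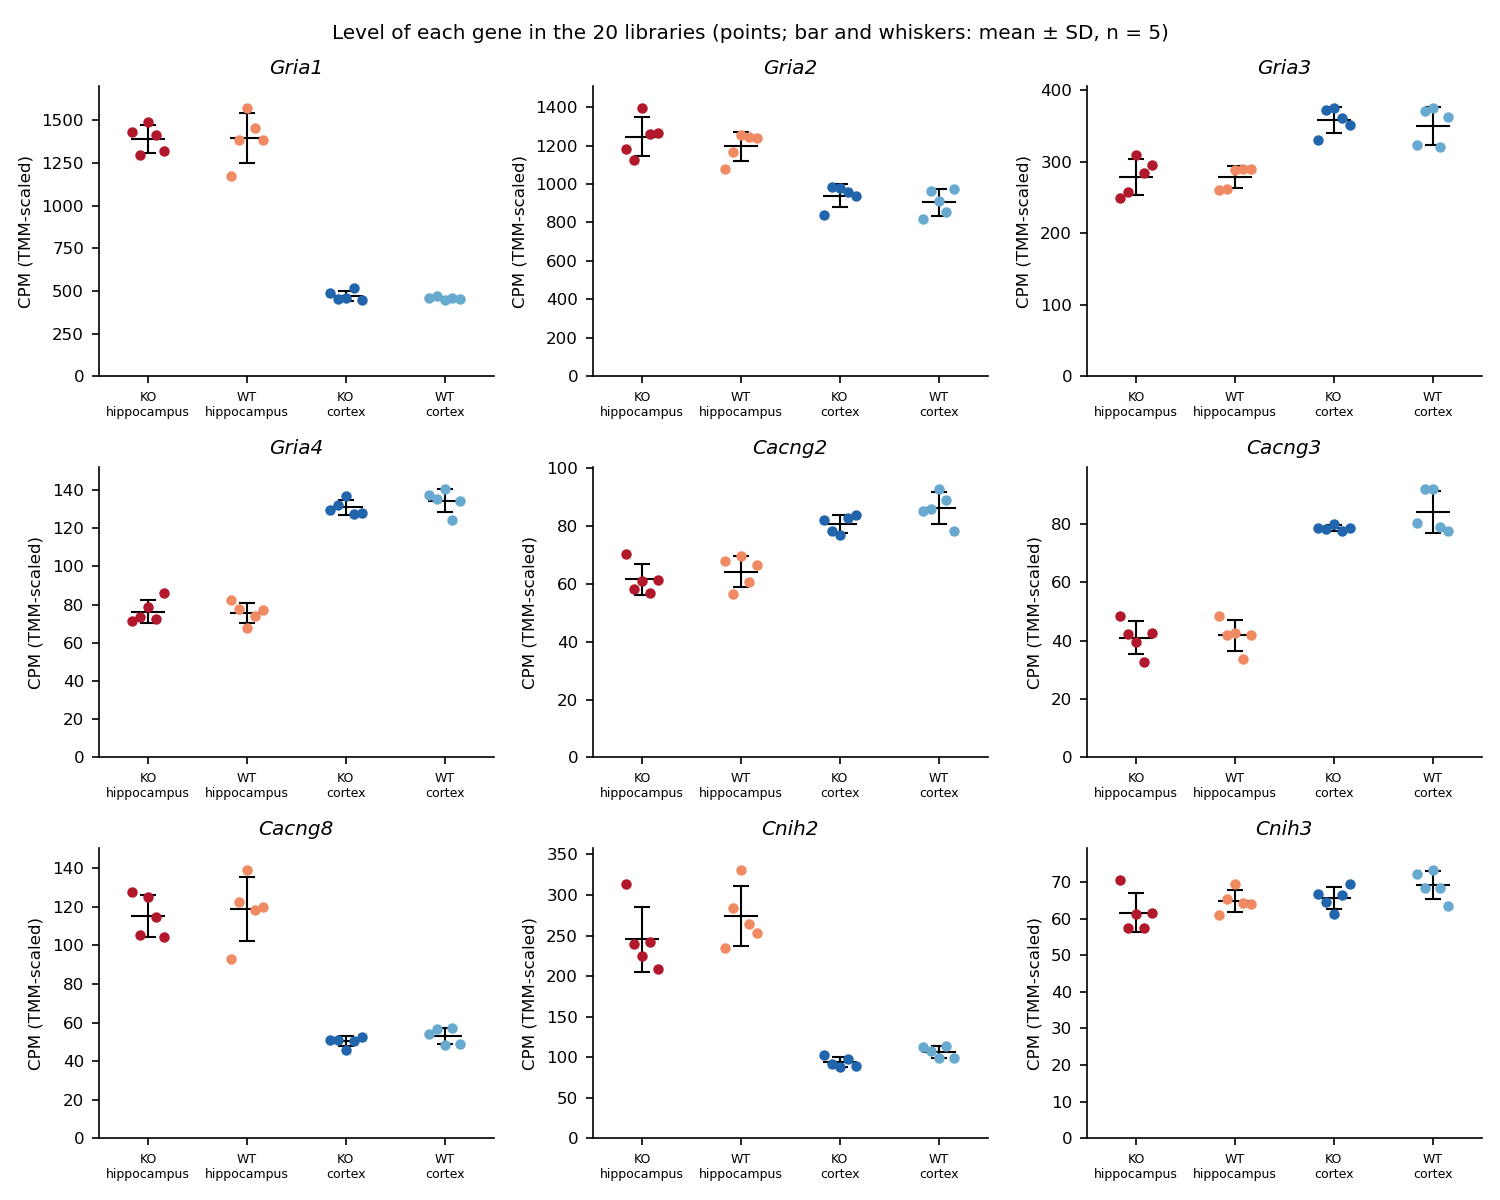
Level of each of the 9 genes in CPM (scaled with edgeR's TMM factors) in KO hippocampus, WT hippocampus, KO frontal cortex and WT frontal cortex; points are libraries, and the bar and whiskers are the mean ± SD of 5. Gria1, Gria2, Cacng8 and Cnih2 stand above every cortex library in hippocampus, Cnih3 overlaps in all 4 groups, and KO and WT libraries of a region overlap in every panel.

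Gria1 encodes GluA1, the subunit whose tail is phosphorylated during long-term potentiation. It had 1430.4, 1298, 1489.9, 1413 and 1318 CPM in KO hippocampus against 486, 451, 459.5, 515 and 449 CPM in KO cortex. In WT mice it had 1172, 1383, 1575, 1457 and 1385 CPM in hippocampus against 456, 469, 447, 456 and 451 CPM in cortex. The lowest hippocampus library, WT replicate 1, was still above the highest cortex library. The log2 fold change was 1.55 ± 0.05 in KO (2.93-fold, adjusted p = 1.43e-10 by edgeR) and 1.60 ± 0.06 in WT (3.03-fold, adjusted p = 2.13e-09 by edgeR), given with its SE as below.

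Gria2, whose edited subunit keeps calcium out, differed less. Its levels were 1181, 1125, 1398, 1262 and 1266 CPM in KO hippocampus against 839.9, 983, 977, 960.1 and 937 CPM in KO cortex. In WT mice they were 1078, 1164, 1254, 1243 and 1239 CPM in hippocampus against 816, 966, 912, 854 and 973 CPM in cortex. Hippocampus libraries were above cortex libraries without overlap in both genotypes. The log2 fold change was 0.40 ± 0.06 in KO (95% interval 0.27 to 0.53, adjusted p = 0.00012) and 0.39 ± 0.06 in WT (0.26 to 0.51, adjusted p = 0.000157, both by edgeR).

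Gria3, an X-linked gene whose subunit is found with GluA2 in many receptors, went the other way. KO hippocampus libraries had 249, 258, 309.5, 284 and 296 CPM against 331, 372, 376, 361 and 351 CPM in KO cortex, and WT hippocampus libraries had 261, 262, 289, 290.1 and 289.8 CPM against 324, 371, 375, 320.4 and 363 CPM in WT cortex. The gap between the regions was narrow, and the highest hippocampus library lay under the lowest cortex library in each genotype. Its log2 fold change was -0.37 ± 0.06 in KO (adjusted p = 0.000392) and -0.35 ± 0.06 in WT (adjusted p = 0.000334, both by edgeR).

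Gria4, which encodes GluA4, was lower in hippocampus by a wider margin. It had 71.2, 73.2, 78.6, 72.2 and 85.9 CPM in KO hippocampus against 129.7, 132, 137, 128 and 128 CPM in KO cortex. In WT mice it had 82.3, 77.4, 67.6, 73.9 and 76.9 CPM in hippocampus against 138, 135, 141, 124 and 134 CPM in cortex. No hippocampus library came near the cortex range. Hippocampus over cortex was 0.580-fold in KO (log2 -0.78 ± 0.05, adjusted p = 8.61e-08) and 0.557-fold in WT (log2 -0.85 ± 0.06, adjusted p = 9.46e-08, both by edgeR). Of 6 markers of interneurons, the cells best known for GluA4, Gad1, Gad2, Slc32a1, Pvalb and Vip were called lower in hippocampus in both genotypes, and Sst was not called and lay above 0. Over all genes, 19.6% in KO and 20.7% in WT were called lower. The 6 markers were all detected and summed to 719 to 829 CPM in KO hippocampus, 739.7 to 828 in WT hippocampus, 906 to 1051 in KO cortex and 891 to 1127 in WT cortex. Their part in the difference was not tested, and in bulk tissue fewer cells of a type and less RNA per cell cannot be told apart.

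Among the TARPs, Cacng8 stood on the hippocampal side. It had 127, 105, 125, 115 and 104 CPM in KO hippocampus against 51.1, 50.9, 45.8, 50.5 and 52.8 CPM in KO cortex. WT hippocampus libraries had 93.1, 123, 139, 118 and 119.98 CPM against 54.3, 56.6, 48.5, 57.0 and 49.1 CPM in WT cortex. WT hippocampus replicate 1 was the lowest hippocampus library and lay far above the cortex range. The log2 fold change was 1.19 ± 0.07 in KO (2.29-fold, adjusted p = 1.01e-08) and 1.15 ± 0.09 in WT (2.21-fold, adjusted p = 5.12e-07, both by edgeR).

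Cacng2, or stargazin, the TARP missing in the epileptic and ataxic stargazer mouse, and Cacng3, its closest relative, stood on the cortical side. Cacng2 had 70.4, 58.4, 61.0, 56.8 and 61.3 CPM in KO hippocampus against 82.2, 78.3, 76.9, 82.8 and 83.9 CPM in KO cortex, and 68.0, 56.5, 69.7, 60.8 and 66.7 CPM in WT hippocampus against 85.3, 85.8, 93.1, 89.0 and 78.4 CPM in WT cortex. Its groups came close without overlapping, and the log2 fold change was -0.40 ± 0.06 in KO (adjusted p = 0.000104) and -0.44 ± 0.06 in WT (adjusted p = 0.000107, both by edgeR). Cacng3 had 48.4, 42.2, 39.4, 32.8 and 42.5 CPM in KO hippocampus against 78.6, 78.4, 80.05, 77.7 and 78.5 CPM in KO cortex. In WT mice it had 48.6, 41.9, 42.6, 33.9 and 42.1 CPM in hippocampus against 80.2, 92.2, 92.1, 79.1 and 77.5 CPM in cortex. Replicate 4 was the lowest hippocampus library of both genotypes, and the groups were far apart. Cacng3 was 0.521-fold in KO hippocampus relative to KO cortex (log2 -0.94 ± 0.08, adjusted p = 6.43e-07) and 0.490-fold in WT (log2 -1.03 ± 0.09, adjusted p = 8.53e-07, both by edgeR).

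The cornichons parted. Cnih2, which with Cacng8 shapes the slow receptor kinetics of hippocampal pyramidal neurons, had 313, 239, 224, 242 and 209 CPM in KO hippocampus against 102, 91.3, 88.5, 98.0 and 89.3 CPM in KO cortex. WT libraries had 235, 284, 331, 264 and 254 CPM in hippocampus against 112, 107, 98.9, 114 and 99.5 CPM in cortex. The regions did not overlap, although KO hippocampus replicate 1 and WT hippocampus replicate 3 stood well above the other libraries of their groups. The log2 fold change was 1.38 ± 0.09 in KO (2.61-fold, adjusted p = 8.35e-08) and 1.35 ± 0.08 in WT (2.54-fold, adjusted p = 6.06e-08, both by edgeR).

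Cnih3, the other cornichon known to bind AMPA receptors, had 70.5, 57.4, 61.3, 57.3 and 61.6 CPM in KO hippocampus against 66.6, 64.5, 61.2, 66.5 and 69.3 CPM in KO cortex. In WT mice the values were 61.1, 65.3, 69.5, 64.3 and 64.1 CPM in hippocampus against 72.3, 68.5, 73.4, 68.4 and 63.4 CPM in cortex. The groups overlapped in both genotypes. Its log2 fold change was -0.09 (95% interval -0.23 to 0.04, adjusted p = 0.241) in KO and -0.11 (-0.22 to -0.00, adjusted p = 0.0973) in WT, by edgeR. Without KO hippocampus replicate 1 the KO value was -0.14 (adjusted p = 0.0305), and without WT cortex replicate 5 the WT value was -0.14 (adjusted p = 0.0315), so leaving out 1 library was enough to give a call in each genotype. With all libraries kept it was called once the trend of each library with gene length was removed, at -0.15 in KO (adjusted p = 0.0307) and -0.16 in WT (adjusted p = 0.0153, both by edgeR).

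**Figure D2:**
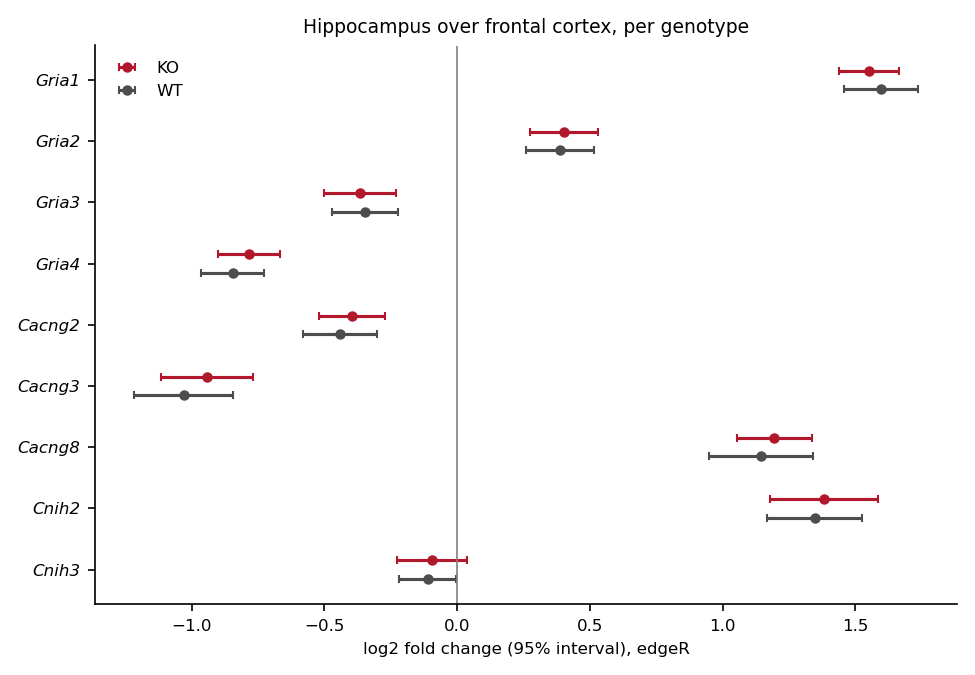
Log2 fold change of hippocampus over frontal cortex with its 95% interval (edgeR) for the 9 genes, in KO and in WT mice. The intervals of the genotypes overlap for every gene, Gria1, Cnih2 and Cacng8 lie furthest to the right and Cacng3 and Gria4 furthest to the left.

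The 8 calls in KO and the 8 in WT held in 288 of 288 alternatives, with the same sign, and without the 3 hippocampus libraries richest in choroid plexus transcripts Gria1 was at 1.57 in KO and 1.58 in WT and Cacng3 at -0.86 and -0.96 on the log2 scale. WT hippocampus replicate 1 was the lowest library of its group in Gria1, Gria2, Gria3, Cacng8, Cnih2 and Cnih3. It was the highest of its group in Gria4, at 82.3 CPM, and Cacng3, at 48.6 CPM. Of the 4 dentate markers it was the lowest in Prox1, at 87.7 CPM, and Dsp, at 25.4 CPM, while in C1ql2 and Calb1, at 41.2 and 142 CPM, it stood above replicate 5, at 39.9 and 139.7 CPM. Its part in these values was not tested beyond leaving it out, which moved Gria1 to 1.65 and Cacng8 to 1.22 in WT.

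To compare levels between genes, CPM were divided by the length of each gene's exons in kb (the union of all exons in GENCODE M21). In KO hippocampus the order was Gria1 at 230 ± 13.3, Cnih2 at 179 ± 29.3, Gria2 at 80.2 ± 6.63, Cacng8 at 49.2 ± 4.596, Gria3 at 28.3 ± 2.57, Cnih3 at 22.4 ± 1.96, Cacng3 at 14.8 ± 2.04, Gria4 at 12.1 ± 0.968 and Cacng2 at 11.2 ± 0.954 CPM per kb (SD, n = 5). WT hippocampus had the same order. Gria1 and Cnih2 overlapped in their library ranges in both genotypes, as did Cacng3 and Gria4, and Gria4 and Cacng2; Gria3 and Cnih3 overlapped in KO only. In KO cortex Gria1, at 78.1 ± 4.70, and Cnih2, at 68.6 ± 4.38 CPM per kb, led with overlapping ranges. Below them stood Gria2 at 60.4 ± 3.75, Gria3 at 36.3 ± 1.85, Cacng3 at 28.3 ± 0.313, Cnih3 at 23.9 ± 1.10, Cacng8 at 21.4 ± 1.11, Gria4 at 20.8 ± 0.600 and Cacng2 at 14.7 ± 0.553. The ranges of Cnih3 and Cacng8 overlapped in both genotypes, as did those of Cacng8 and Gria4. In WT cortex those of Gria3 and Cacng3 overlapped too, and Cnih2, at 77.7 ± 5.08, stood just above Gria1, at 75.4 ± 1.38 CPM per kb. These orders hold for this length scale.

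Put as shares of their own family, the pore subunits were more unequal in hippocampus. Gria1 made up 65.6% ± 1.56 of the summed CPM per kb of the 4 subunits in KO hippocampus, 66.2% ± 1.62 in WT hippocampus, 39.9% ± 2.15 in KO cortex and 39.6% ± 1.58 in WT cortex. Gria2 made up 22.9% ± 0.854, 22.1% ± 0.706, 30.9% ± 1.42 and 30.5% ± 1.26 in the same order of groups, so the share of Gria2 was lower in hippocampus although its level was higher. Gria3 stood at 8.08% ± 0.542 in KO hippocampus against 18.6% ± 0.671 in KO cortex, and Gria4 at 3.46% ± 0.322 against 10.6% ± 0.408; these shares follow from the levels and carry no test of their own. Relative to Gria2, Gria1 stood at 2.88 ± 0.175 per kb in KO hippocampus, 2.995 ± 0.168 in WT hippocampus, 1.30 ± 0.131 in KO cortex and 1.30 ± 0.101 in WT cortex. The lowest hippocampus ratio was 2.68 and the highest cortex ratio was 1.49. The summed pore subunits were 351 ± 20.2 CPM per kb in KO hippocampus, 348 ± 29.1 in WT hippocampus, 196 ± 6.25 in KO cortex and 190.4 ± 7.38 in WT cortex.

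Which pore subunit led in cortex depended on the length used. Without any division by length Gria2 had 49.4% and Gria1 24.9% in KO cortex, and 49.0% and 24.8% in WT cortex, because the exons of Gria2 span 15.5 kb and those of Gria1 6.04 kb. Per kb of the longest transcript they were close, at 33.7% for Gria2 and 31.7% for Gria1 in KO cortex. In hippocampus Gria1 led on all 3 scales, but the size of its lead over Gria2 depended on the length used. Without division by length Gria1 had 46.5% and Gria2 41.6% in KO hippocampus, and 47.3% and 40.7% in WT hippocampus. Per kb of the longest transcript they had 57.2% and 27.4% in KO hippocampus. The direction of each share between the regions was the same on all 3 scales.

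Per kb of exon union, Cacng8 and Cacng3 exchanged places between the regions. Cacng8 held 65.5% ± 2.76 of the TARP sum in KO hippocampus, 65.2% ± 4.72 in WT hippocampus, 33.2% ± 1.09 in KO cortex and 33.02% ± 2.28 in WT cortex. Cacng3 held 19.7% ± 2.23, 19.6% ± 3.34, 44.0% ± 1.33 and 44.1% ± 2.18 in the same order, and Cacng2 14.9% ± 0.615, 15.2% ± 1.67, 22.8% ± 0.480 and 22.8% ± 0.959. The ratio of Cacng8 to Cacng3 was 3.38 ± 0.551 in KO hippocampus and 3.43 ± 0.717 in WT hippocampus, against 0.757 ± 0.0454 in KO cortex and 0.751 ± 0.0859 in WT cortex. WT hippocampus replicate 1 had the lowest hippocampal ratio, 2.27, and the highest cortical ratio was 0.853. Without division by length Cacng2 held 28.2% and Cacng3 18.8% in KO hippocampus and 38.5% and 37.5% in KO cortex. So the order of Cacng2 and Cacng3 depended on the length used. Cacng8 held 23.9% in KO cortex without division by length, less than either. Per kb of the longest transcript Cacng3 held 41.0% and Cacng8 37.9% in WT cortex, with overlapping library ranges. Among these 3 TARPs, Cacng8 led in hippocampus on all 3 scales. The sum leaves out further TARPs such as Cacng7. Without division by length Cacng7 had 127 ± 7.66 CPM in KO hippocampus and 135 ± 11.2 CPM in WT hippocampus. The means of Cacng8 were lower, at 115 ± 10.8 and 119 ± 16.6 CPM. The cornichon sum holds Cnih2 and Cnih3 only, and further cornichon genes were not examined. Cnih2 held most of this sum everywhere, with 88.8% ± 1.14 in KO hippocampus, 89.4% ± 0.796 in WT hippocampus, 74.2% ± 1.27 in KO cortex and 75.5% ± 1.47 in WT cortex. Cnih3 made up the rest, at 11.2% per kb and 20.2% without division by length in KO hippocampus, and 25.8% and 41.2% in KO cortex.

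Set against the pore subunits, the summed TARPs stood at 0.215 ± 0.0166 in KO hippocampus, 0.223 ± 0.0109 in WT hippocampus, 0.330 ± 0.0155 in KO cortex and 0.361 ± 0.0216 in WT cortex. The summed TARPs, here Cacng2, Cacng3 and Cacng8, were 75.2 ± 6.21 CPM per kb in KO hippocampus, 77.4 ± 6.66 in WT hippocampus, 64.4 ± 1.36 in KO cortex and 68.6 ± 3.72 in WT cortex. The sum of these genes was not lower in hippocampus, and the smaller ratio went with the larger pore sum given above. Further TARPs were left out of it. Cacng4 had 30.9 CPM in KO hippocampus against 51.3 in KO cortex, and Cacng7 had 127 against 164. Cacng5 had 14.9 CPM in KO hippocampus against 13.8 in KO cortex. Whether a sum over all TARPs differed between the regions was not tested. Relative to the pore subunits, the summed cornichons, here Cnih2 and Cnih3, stood at 0.577 ± 0.0950, 0.642 ± 0.0468, 0.473 ± 0.0323 and 0.541 ± 0.0474 in the same order. The ratio of summed Cacng2, Cacng3 and Cacng8 to the pore subunits was lower in hippocampus, with no overlap of libraries between the regions. The cornichon ratios of the regions overlapped in KO and came to 0.595 at the lowest in WT hippocampus and 0.594 at the highest in WT cortex.

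**Figure D3:**
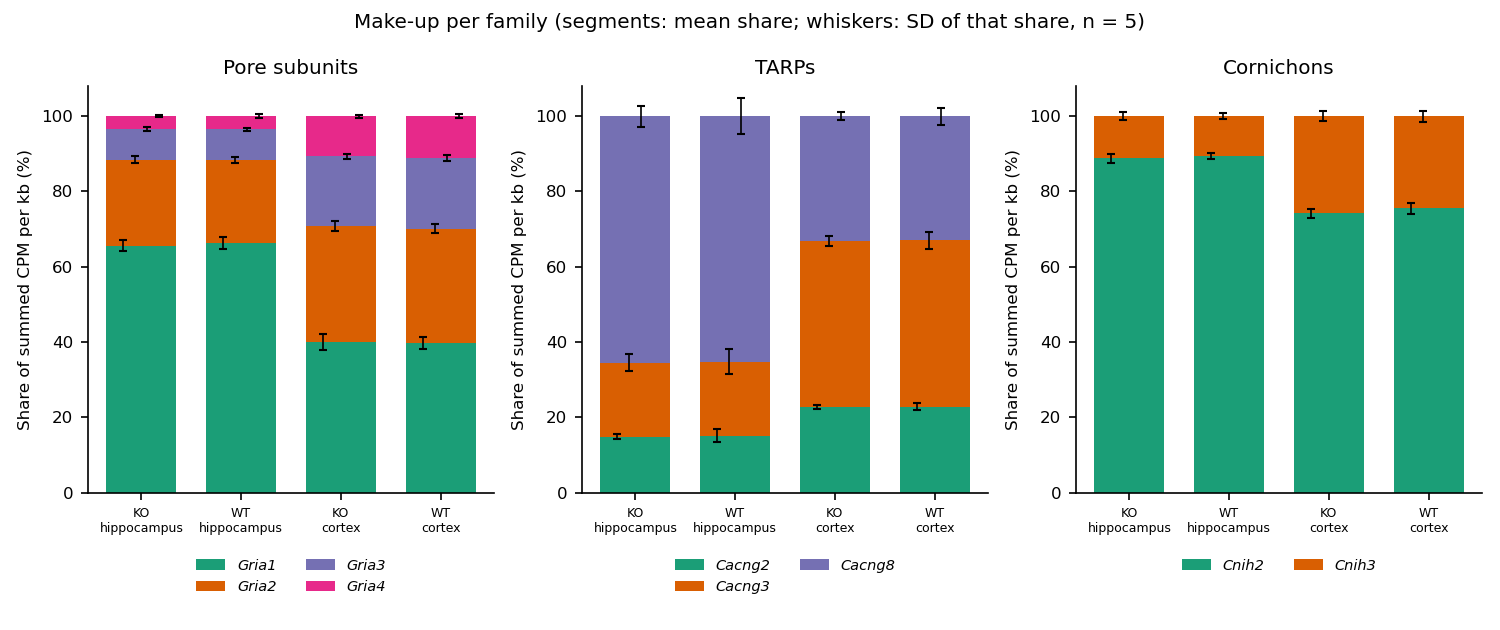
Share of each gene in the summed CPM per kb of its family (pore subunits, TARPs and cornichons), in percent, for KO hippocampus, WT hippocampus, KO frontal cortex and WT frontal cortex; segments are means of 5 libraries and whiskers the SD of that segment's share. The TARP family here holds Cacng2, Cacng3 and Cacng8 only, and the cornichon family Cnih2 and Cnih3 only. Gria1, Cacng8 and Cnih2 take larger shares in hippocampus, and KO and WT bars of a region look alike, for example Gria1 at 65.6% and 66.2% in hippocampus.

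Between KO and WT, none of the 9 genes passed the threshold. In hippocampus 0 of 9 and in cortex 0 of 9 were called by edgeR, against 4 of 15042 genes (0.0266%) in hippocampus and 4 of 14823 (0.027%) in cortex. DESeq2 and limma-voom called 0 members as well. No member separated the KO from the WT libraries without overlap, as 0.446% of all genes did in hippocampus and 2.17% in cortex. At an unadjusted p under 0.05 there were 0 members in hippocampus and 1 in cortex, where 3.78% and 14.8% of all genes passed.

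In hippocampus the log2 fold changes of KO over WT were 0.00 for Gria1 (95% interval -0.15 to 0.16), 0.07 for Gria2 (-0.07 to 0.21), 0.01 for Gria3 (-0.13 to 0.16) and 0.02 for Gria4 (-0.12 to 0.16). They were -0.05 for Cacng2 (-0.20 to 0.10), -0.01 for Cacng3 (-0.24 to 0.21), -0.03 for Cacng8 (-0.24 to 0.17), -0.15 for Cnih2 (-0.39 to 0.09) and -0.06 for Cnih3 (-0.19 to 0.06). On the linear scale the interval of Gria1 reached from 0.901-fold to 1.12-fold. Adjusted p-values lay between 0.991 and 0.998 by edgeR.

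In cortex the pore subunits had log2 fold changes of 0.05 for Gria1 (95% interval -0.04 to 0.14), 0.06 for Gria2 (-0.06 to 0.18), 0.03 for Gria3 (-0.08 to 0.15) and -0.04 for Gria4 (-0.12 to 0.05). All 5 auxiliary genes had values under 0, as they did in hippocampus. In cortex they were at -0.09 for Cacng2 (-0.20 to 0.01), -0.10 for Cacng3 (-0.21 to 0.02), -0.08 for Cacng8 (-0.20 to 0.05), -0.18 for Cnih2 (-0.30 to -0.06) and -0.08 for Cnih3 (-0.18 to 0.03). Of all genes, 50.6% were above 0 in cortex and 53.1% in hippocampus. The member median was -0.08 in cortex and -0.01 in hippocampus, beside medians over all genes of 0.00 and 0.01. The sum of 4 markers of excitatory neurons, which carry many of these receptors, lay between 2228 and 2532 CPM in KO cortex and 2568 and 3035 CPM in WT cortex, without overlap, although 0 of the 4 were called and their median log2 fold change was -0.17. In hippocampus 0 of these 4 were above 0 (median -0.11) and 0 were called. Other marker lists had no call in cortex either, with 5 of 5 markers of striatal projection neurons above 0 (median 0.22) and 4 of 4 astrocyte markers under 0 (median -0.12). Above 0 too were 4 of 4 oligodendrocyte markers (median 0.04) and 3 of 3 tested choroid plexus markers (median 0.93). Of the CA pyramidal markers, 0 of 4 were above 0 (median -0.10). The part of these cells in the members' values was not tested.

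Cnih2 came closest to a genotype difference. Its levels in KO cortex, at 93.9 ± 5.999 CPM, were 0.884-fold (95% interval 0.815 to 0.958) those in WT cortex, at 106 ± 6.96 CPM (SD, n = 5 each). The groups overlapped, since KO replicate 1, at 102 CPM, lay above WT replicates 3 and 5, at 98.9 and 99.5 CPM. The unadjusted p was 0.0056 and the adjusted p was 0.235 by edgeR, and over the alternatives the adjusted p lay between 0.0566, without WT cortex replicate 5, and 0.500. The value in hippocampus, 245 ± 40.1 CPM in KO against 274 ± 36.9 CPM in WT, had an interval that includes no change.

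**Figure D4:**
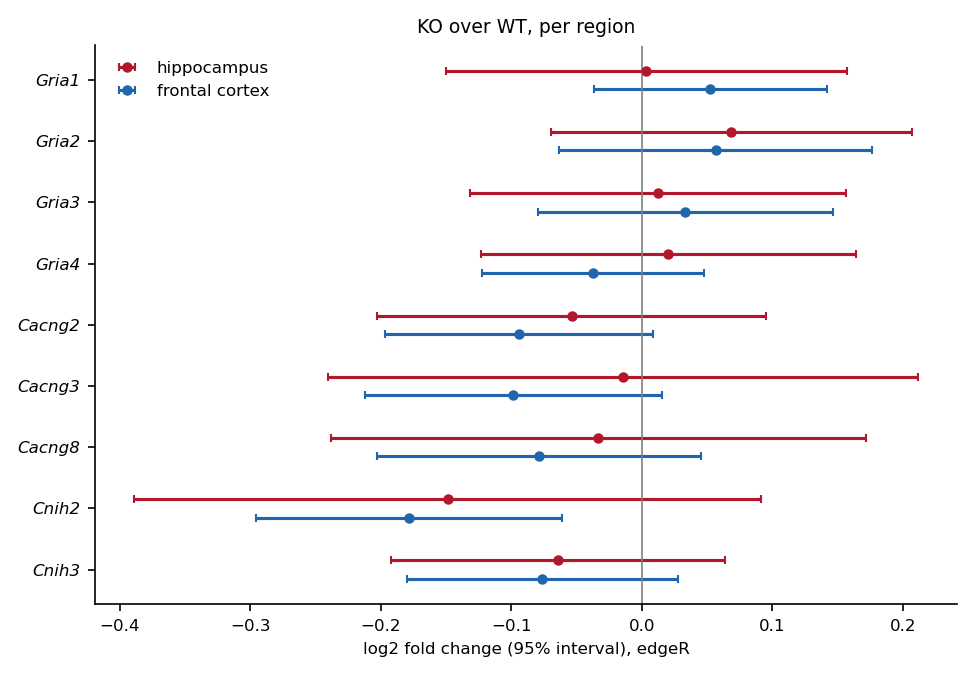
Log2 fold change of KO over WT with its 95% interval (edgeR) for the 9 genes, in hippocampus and in frontal cortex. Every interval but that of Cnih2 in cortex (-0.30 to -0.06) includes 0, and no gene passed the adjusted threshold in either region.

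Whether the genotype difference depended on region was tested as an interaction, and 0 of 15310 genes were called by edgeR, members included, a background of 0%. Without adjustment, 214 genes and 0 members had a p under 0.05, and DESeq2 called 1 gene, not a member. The interaction values of the members ran between -0.06 for Gria1 and 0.08 for Cacng3 on the log2 scale. The widest interval was that of Cnih2, -0.25 to 0.30.

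Genes of 3 further groups of the pathway were listed alongside: other auxiliary subunits, factors of assembly and editing, and scaffold and trafficking proteins. None of their 30 genes was called between genotypes in either region or in the interaction. Between regions, 3 of the 10 other auxiliary genes were higher in hippocampus and 6 lower in each genotype. Over all genes, 19.2% were called higher and 19.6% lower in KO hippocampus, and 18.8% and 20.7% in WT hippocampus. Shisa8, one of the 10, was near the floor, with means of 0.798 CPM in KO hippocampus and 1.51 CPM in KO cortex. Shisa6, whose product (CKAMP52) keeps receptors from desensitising, had the largest difference, with 237 ± 34.2 CPM in KO hippocampus against 22.5 ± 2.82 CPM in KO cortex (10.5-fold, log2 3.39 ± 0.11, adjusted p = 9.5e-11) and 225 ± 40.4 CPM in WT hippocampus against 20.5 ± 1.99 CPM in WT cortex (10.9-fold, adjusted p = 1.1e-09, both by edgeR). Prrt1 (SynDIG4), a receptor-associated membrane protein, was at 1.86-fold in KO and 1.70-fold in WT, and Shisa7 at 1.28-fold and 1.36-fold. Gsg1l, an auxiliary subunit of the claudin family like the TARPs, was at 0.294-fold in KO hippocampus relative to KO cortex and 0.270-fold in WT, and Cacng4 and Cacng7, further TARPs, were at 0.602-fold and 0.770-fold in KO and 0.594-fold and 0.787-fold in WT.

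Of the 7 genes of assembly and editing, 3 were higher and 2 lower in hippocampus in each genotype. The shares over all genes were 19.2% higher and 19.6% lower in KO, and 18.8% and 20.7% in WT. Cpt1c, a partner of GluA1 in the endoplasmic reticulum, was at 1.48-fold in KO and 1.53-fold in WT, Porcn at 1.38-fold and 1.41-fold, and Abhd6 at 1.22-fold and 1.15-fold. Adarb1, the deaminase that edits the Gria2 codon shown above, had 205 ± 9.98 CPM in KO hippocampus against 278 ± 13.3 CPM in KO cortex (0.733-fold, adjusted p = 5.8e-06) and 205 ± 8.26 CPM in WT hippocampus against 282 ± 12.4 CPM in WT cortex (0.719-fold, adjusted p = 2.2e-06, both by edgeR). Frrs1l, an assembly factor of the endoplasmic reticulum, was at 0.847-fold and 0.825-fold.

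Of the 13 scaffold and trafficking genes, 5 were higher and 6 lower in KO hippocampus, and 3 higher and 7 lower in WT hippocampus. Among all genes the shares were 19.2% and 19.6% in KO, and 18.8% and 20.7% in WT. Nptx1, a secreted pentraxin that gathers receptors, was at 1.67-fold in KO and 1.54-fold in WT, Nsf at 1.32-fold and 1.30-fold and Grip1 at 1.31-fold and 1.34-fold. Grip2 was at 0.432-fold and 0.443-fold and Dlg1 (SAP97), a scaffold that binds GluA1, at 0.535-fold and 0.522-fold, so the paralogs Grip1 and Grip2 were called in opposite directions. Akap5, an anchor for kinases and phosphatases at the receptor, was at 0.628-fold in KO, and Dlg2 at 0.768-fold in WT. The members of this list that were called in KO only were Dlg3 and Dlg4, with log2 values of 0.14 and 0.13 in KO and 0.11 and 0.12 in WT, and Pick1 was called in WT only, at -0.11 in KO and -0.16 in WT. The difference between genotypes was not called for any of them. Shisa6, Grip1 and Dlg2 overlap genes on the opposite strand, which had low counts except Helb beside Grip1 (means of 132 in hippocampus and 101 in cortex libraries, against 801 and 455 for Grip1), and whether strand was used in counting is not stated. Nptxr, which was not called, shares 18359 bases of its span with Npcd on the same strand, whose mean counts of 25156 in hippocampus and 17392 in cortex libraries stood against 6671 and 5329 for Nptxr, so the counts of Nptxr are uncertain.

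**Figure D5:**
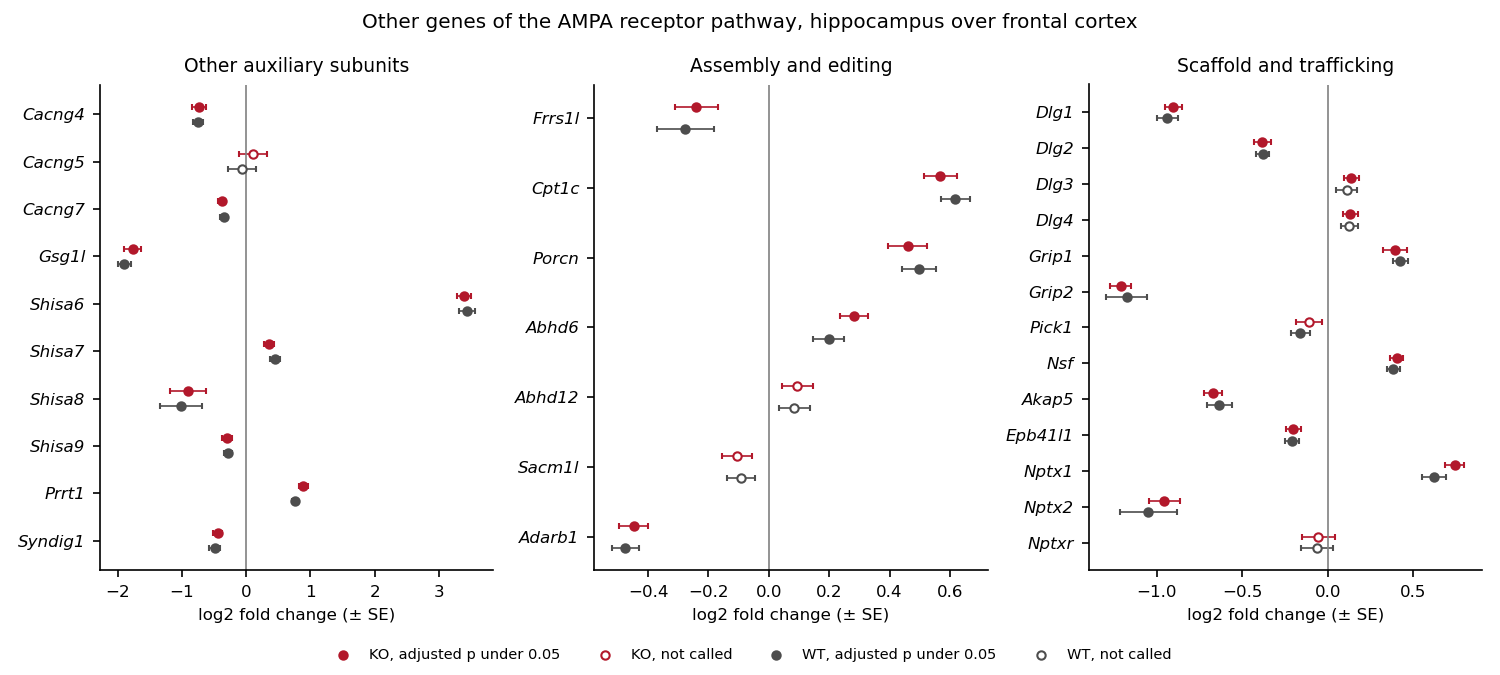
Log2 fold change of hippocampus over frontal cortex (± SE, edgeR) for 10 other auxiliary subunits, 7 genes of assembly and editing and 13 scaffold and trafficking genes, in KO and in WT mice; filled points had an adjusted p under 0.05. Shisa6 stands apart at 3.39 in KO and 3.44 in WT, and Gsg1l, at -1.77 and -1.89, is the lowest.

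For each member that varied enough, the genes whose centred log2 CPM followed it most closely over the 20 libraries were sought among 9884 others with a mean of at least 10 CPM, by the root mean square of the difference, which is a description and mostly reflects the region. For Gria1 they were Ust, at 0.09, and Pip5k1b, at 0.10; for Gria2 Dab1, at 0.06, and Tub, at 0.07; for Gria3 Cacna2d1 and Ralgapb, both at 0.05; and for Gria4 Fam81a, at 0.06, and Lpgat1, at 0.07. Among auxiliary genes they were Stmn4 and Rcan1 for Cacng2, Pak7 and Pknox2 for Cacng3, Scn3b and Cyp7b1 for Cacng8, and Hpca, at 0.11, and Lpl, at 0.15, for Cnih2. Cnih3 had an SD of 0.10 on the log2 scale and was too even across libraries to be matched. The SD of the others ran between 0.20 for Gria3 and 0.82 for Gria1.

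Promoter sequence was looked up because Cacng8 and Cnih2 were both higher in hippocampus. RefSeq (GRCm38.p6) windows of 300 bases, 250 before and 50 after the gene start, are described for 6 of the 9 genes; the windows below read 5′ to 3′ on the coding strand, and capitals mark the GC box CCGCCC, which reads GGGCGG on the other strand.
Cacng8, chr7:3393792-3394091, plus strand: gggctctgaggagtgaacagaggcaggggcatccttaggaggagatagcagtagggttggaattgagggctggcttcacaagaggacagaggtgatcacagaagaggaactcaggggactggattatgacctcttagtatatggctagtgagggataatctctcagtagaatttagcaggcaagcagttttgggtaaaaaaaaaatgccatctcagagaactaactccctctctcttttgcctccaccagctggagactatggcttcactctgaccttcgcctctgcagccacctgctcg
Cnih2, chr19:5098472-5098771, minus strand: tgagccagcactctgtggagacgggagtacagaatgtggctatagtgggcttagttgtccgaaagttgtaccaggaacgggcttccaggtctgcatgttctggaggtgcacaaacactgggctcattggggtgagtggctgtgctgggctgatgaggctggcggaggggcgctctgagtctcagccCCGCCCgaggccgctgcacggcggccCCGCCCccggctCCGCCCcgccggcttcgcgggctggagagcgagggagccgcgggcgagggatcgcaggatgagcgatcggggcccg
Cnih2 held 3 GC boxes and Cnih3 held 1, while the other 4 windows held none; GGGCGG on either strand was found in 35.7% of all 32851 promoters. None of the 6 windows held TGACG (20.8% of all promoters on either strand), CAGATG (17.2%) or TATAAA (13.6%). The windows held 2 CpG in Cacng8, 17 in Gria4, 20 in Cacng2, 25 in Cnih2, 26 in Gria2 and 42 in Cnih3, where the median of all promoters was 7. Each window was placed by the RefSeq gene start, and whether transcription begins there was not tested. In Cacng8 the bases just before the start read cctccaccag, which resembles the end of an intron, so its window may not be a promoter. The deposited range of Cacng8 begins at the same start, chr7:3394042. Its counts, level per kb and TARP shares may therefore rest on an incomplete gene model, which was not tested.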

How the data were processed

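Total RNA from 20 libraries was sequenced, and the authors deposited 1 table per region with expected counts per gene; per the submitters' processing notes the build was mm10 and STAR 2.7.3a and Partek were used. The annotation used and any use of strand were not given in the sources used. The deposited expected counts were not all whole (22.6% to 27.3% of values per library lay over 0.001 from a whole number) and were rounded. The lowest row total was 10 in each table. The ribosomal row Rn45s took 0.661% to 4.00% of a library.

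Genes were filtered with filterByExpr, scaled by TMM and tested with edgeR 4.0.16 (quasi-likelihood, R 4.3.3), with Benjamini-Hochberg adjustment over all genes tested, for KO over WT within each region, hippocampus over cortex within each genotype on the genes in both tables, and the interaction. DESeq2 1.42.0, limma 3.58.1 (voom), other scalings and filters, a replicate block, removal of the gene length trend and leaving out each library were alternatives. SE is the log2 fold change divided by the square root of F. Levels are CPM with TMM factors over the 20 libraries; intervals cover 95%. The tests were tried on simulated counts with known changes.

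The 9 genes were named in every comparison, and of the other pathway genes up to 3 per list and direction with the smallest p. Members, lists and tests were chosen with earlier results of these data known. Equal replicate numbers are not stated to mark the same animal. Sequences came from GENCODE M21 and RefSeq with Python 3.11.15.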

Additional observations from a re-analysis of the deposited data

How the results depend on the processing

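The 8 members called between regions in KO and the 8 in WT kept their direction and call in 288 of 288 alternatives (other scaling, DESeq2, limma-voom, no filter, replicate block, length trend removed, each library left out, and, chosen after seeing the data, without the 3 hippocampus libraries with the most Ttr). Of 621 alternatives for differences that were not called, 4 gave a call, all for Cnih3 between regions, and 49 gave the other sign, none with a size over 0.08 on the log2 scale. With the length trend removed Cnih3 was called, at -0.15 in KO (adjusted p = 0.0307) and -0.16 in WT (adjusted p = 0.0153). With the length trend removed the sign of KO over WT changed for Gria2 (-0.055) and Gria3 (-0.029) in cortex and for Gria1 (-0.011), Gria2 (-0.023), Gria3 (-0.042) and Cacng3 (0.010) in hippocampus, and that of the interaction for Cnih2 (-0.0062); the cause was not tested. Gria1 in hippocampus was at -0.0062 with no filter and -0.0049 with all libraries in one fit, and without the Ttr-rich libraries Cacng8 in hippocampus was at 0.0019 and the Gria3 interaction at 0.016. Leaving out 1 library at a time, KO over WT in hippocampus ranged from -0.055 to 0.048 for Gria1, -0.030 to 0.041 for Gria3, -0.029 to 0.050 for Gria4, -0.089 to 0.055 for Cacng3 and -0.11 to 0.028 for Cacng8. The interaction ranged from -0.040 to 0.041 for Gria2, -0.068 to 0.0098 for Gria3, -0.019 to 0.066 for Cacng2, -0.036 to 0.10 for Cacng8, -0.079 to 0.10 for Cnih2 and -0.049 to 0.034 for Cnih3. Over all genes, KO over WT in cortex gave 4 calls by edgeR, 162 by DESeq2, 7 with all libraries in one fit and 563 without WT cortex replicate 5; in hippocampus the 4 calls became 0 without the Ttr-rich libraries, and the interaction gave 1 call without KO cortex replicate 5. Same-numbered libraries correlated in their deviations by -0.05 to 0.15 between genotypes in cortex, -0.01 to 0.31 in hippocampus, -0.15 to 0.19 between regions in KO and 0.099 to 0.38 in WT. The main tests used no pairs, because no label says that equal numbers mark the same animal. In WT regions 4 of 5 numbers matched their own number best in both directions, a hint from the data and not from the design. With the replicate block 8, 8, 0, 0 and 0 members were called in the KO region, WT region, cortex, hippocampus and interaction comparisons. Of 72 shares recomputed on other length scales 56 moved by over 1 SD; their direction between regions was the same.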
